A study of Mus musculus with 4 samples.

Results

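The 30 mouse genes described here encode nucleoporins, the proteins of the nuclear pore complex. The rule that picks them is a list of names, drawn up with earlier results of these data known, and each was matched in a RefSeq gene table of mouse, 28 by symbol and 2 (Nup58 and Nup42) by an older synonym, out of 21887 protein-coding genes in all. In 4 CUT&Tag libraries made with an antibody against Ruvbl2, nucleoporin genes carried strong peaks in both leukaemia stem cells and haematopoietic stem cells. Of the 30 genes, 6 (20.0%) had a strong peak in all 4 libraries, against 11.3% of all protein-coding genes. In at least 3 libraries it was 13 (43.3%), against 25.6%. Nup35 alone (3.33%) had none in any library, against 35.6%. No gene had one in both LSC libraries and in neither HSC library, against 2.35% of all genes. Nup62 alone had one in both HSC libraries and in neither LSC library, against 2.09%. The nucleoporin genes were also longer (median 44156 bp against 17169 bp), and the strong peaks of a gene could lie at different sites. Of 75 merged regions of strong peaks, 0 were shared by all 4 libraries, against 1.82% of the regions of all genes. Many of the strong peaks that libraries shared lay at transcription start sites.

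CUT&Tag uses an antibody to bring a transposase to chromatin, and Ruvbl2 is an AAA+ ATPase of chromatin remodelling complexes and of a co-chaperone. The LSC group had 2 libraries of bone marrow cells sorted as c-Kit+, CD34+ and CD16/32+ and as Lin- and Sca-1-, from Nup214fl/+ mice with leukaemia driven by MLL-AF9. The HSC group had 2 libraries of CD48-CD150+ LSK bone marrow cells from Nup214fl/+ mice. All 4 libraries thus came from mice with 1 floxed Nup214 allele. The labels name no Cre, no mouse without the floxed allele and no control antibody, and they give neither ages nor how MLL-AF9 was introduced. They do not say whether the libraries of a group came from separate animals, so the spread between them may be technical. The LSC gate is also that of granulocyte-monocyte progenitors, so maturation and leukaemia cannot be told apart. One label calls the cells of every library haematopoietic stem cells, so the groups were taken from the titles.

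The pore complex is the channel through which proteins and RNA pass between nucleus and cytoplasm. Its scaffold is built of a Y complex on both faces and an inner ring, anchored by membrane proteins. Nucleoporins rich in phenylalanine-glycine repeats fill the central channel, filaments reach into the cytoplasm, and a basket hangs on the nuclear side. Nup214 and Nup88 form a cytoplasmic complex that works in export of proteins and mRNA. In human leukaemia NUP214 and NUP98 are recurrent fusion partners. Some nucleoporins, Nup98 among them, also bind chromatin away from the pore.

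The start-site regions of 5 genes, chosen by hand, are shown. Nup214 and its partner Nup88 are described in detail below. Tpr and Nup107 carried the strongest nucleoporin peaks of LSC replicate 2 and HSC replicate 2 at their start sites. Nup54 had a strong start-site peak in replicate 1 alone. Start sites of Nup188, Nup58 and Nup98, which had strong peaks in 3 libraries, are not shown. Each region shown is 300 bases of the gene's own strand from RefSeq (GRCm38.p6), 5′ to 3′, from 250 bases before the annotated start site to 50 after it. Capitals mark exact matches, on either strand, to the GC box GGGCGG, the CCAAT box CCAAT, the ETS site CCGGAAG, the E-box CACGTG, the TATA box TATAAA, the NRF1 core GCGCATGCG or the ZBTB33 site CTCGCGAG. Positions are chr2:31974200-31974499 on the plus strand for Nup214, chr11:70969924-70970223 on the minus strand for Nup88, chr1:150392588-150392887 on the plus strand for Tpr, chr10:117792656-117792955 on the minus strand for Nup107 and chr5:92435150-92435449 on the minus strand for Nup54.
Nup214: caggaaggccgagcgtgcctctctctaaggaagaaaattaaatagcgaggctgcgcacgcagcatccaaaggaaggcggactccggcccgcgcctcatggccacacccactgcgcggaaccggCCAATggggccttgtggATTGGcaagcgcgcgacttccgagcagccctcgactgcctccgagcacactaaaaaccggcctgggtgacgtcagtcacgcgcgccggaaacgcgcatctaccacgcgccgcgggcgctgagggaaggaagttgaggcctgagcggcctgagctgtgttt
Nup88: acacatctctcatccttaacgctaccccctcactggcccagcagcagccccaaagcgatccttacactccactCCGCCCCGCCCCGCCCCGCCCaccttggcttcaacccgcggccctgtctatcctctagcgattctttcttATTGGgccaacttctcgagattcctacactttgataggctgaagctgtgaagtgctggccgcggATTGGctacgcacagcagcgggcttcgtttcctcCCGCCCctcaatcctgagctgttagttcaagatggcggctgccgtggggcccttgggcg
Tpr: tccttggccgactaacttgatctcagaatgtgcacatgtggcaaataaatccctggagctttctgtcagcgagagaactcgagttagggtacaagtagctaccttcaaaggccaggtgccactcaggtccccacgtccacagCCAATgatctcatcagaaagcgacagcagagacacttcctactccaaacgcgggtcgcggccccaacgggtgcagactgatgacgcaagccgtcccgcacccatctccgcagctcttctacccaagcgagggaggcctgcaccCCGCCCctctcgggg
Nup107: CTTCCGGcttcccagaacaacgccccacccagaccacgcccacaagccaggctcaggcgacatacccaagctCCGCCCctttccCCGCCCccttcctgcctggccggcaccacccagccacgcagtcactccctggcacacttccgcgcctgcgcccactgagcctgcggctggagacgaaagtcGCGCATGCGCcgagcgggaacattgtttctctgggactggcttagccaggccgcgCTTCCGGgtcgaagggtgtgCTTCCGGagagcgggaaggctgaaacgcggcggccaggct
Nup54: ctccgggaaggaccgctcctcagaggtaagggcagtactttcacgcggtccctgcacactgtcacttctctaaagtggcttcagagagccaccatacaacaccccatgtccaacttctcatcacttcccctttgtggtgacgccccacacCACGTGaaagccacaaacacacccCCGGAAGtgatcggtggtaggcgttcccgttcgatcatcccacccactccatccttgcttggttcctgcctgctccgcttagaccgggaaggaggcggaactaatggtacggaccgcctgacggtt

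In the Nup214 window, CCAAT boxes began at positions -127 and -110 relative to the start site, on opposite strands. Nup88 had CCAAT boxes at -107 and -43, a run of overlapping GC boxes that began at -177, -172, -167 and -162, and another at -9. Tpr had a CCAAT box at -108 and a GC box at 35. Nup107 held ETS matches at -250, -10 and 10, GC boxes at -178 and -166, and an NRF1 core on each strand at -65 and -64. Nup54 had an E-box at -100 and an ETS match at -76. Windows were found for 26 of the 30 genes, and Nup85, Nup43, Seh1l and Nup35 had none in the table used. A CCAAT box was present in 38.5% of the 26 windows and in 39.2% of 17492 windows of protein-coding genes. The GC box was present in 65.4% of nucleoporin windows and 46.3% of all windows, the ETS site in 26.9% and 11.9%, the E-box in 15.4% and 7.91%, the NRF1 core in 15.4% and 2.41%, the TATA box in 7.69% and 13.3%, and the ZBTB33 site in 0.00% and 1.31%. These are matches of letters and were not tested as binding sites. The nucleoporin windows were also richer in CpG, with a median ratio of observed to expected CpG of 0.899 against 0.577 over all windows, and 24 of 26 (92.3%) had a ratio of at least 0.6, against 48.4% of all. The exceptions were Nup160 (0.314) and Ndc1 (0.593).

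The deposited lists held 216077 and 210541 peaks for LSC replicates 1 and 2, and 161655 and 286107 for HSC replicates 1 and 2. A peak is called listed when it is among the 20000 with the largest −log10 p of its library, and a gene is listed when a listed peak overlaps its body or 1 kb on either side. Fold and −log10 p are the authors' values for a peak over the background of its own library, and ranks count from 1, the strongest. They describe peaks within a library, and folds were not compared between libraries. Ranks were compared only through the shared limit of the lists and in a correlation of ranks given at the end. Read totals are unknown from these lists, and a peak in a share of the cells and a weaker one in all of them cannot be told apart. Listed peaks were narrower in replicate 1, with a median width of 371 bp in LSC and 484 bp in HSC, than in replicate 2, with 634 bp in LSC and 714 bp in HSC. The replicate numbers therefore differed as well as the cell types, and each result is also given by replicate number. Peaks are not expression, and the marker genes of the sorts give a mixed picture. Of 9 markers of the LSC gate and the granulocyte-monocyte lineage, 4, 4, 4 and 5 were listed in LSC replicates 1 and 2 and HSC replicates 1 and 2. Of 7 genes of the HSC gate and stem cells, 1, 2, 2 and 2 were listed in that order. The shares of all protein-coding genes were 32.3%, 41.2%, 30.2% and 41.2% in that order. Ctsg and Meis1 of the first list were listed in all 4 libraries, and Fcgr2b and Hoxa9 in none. Mecom of the second list was listed in all 4 libraries, and Hlf in LSC replicate 2 alone. Slamf1, Ly6a and Procr were listed in no library, nor was Cd48, which the HSC gate selects against. Kit, which both gates select, was listed in both HSC libraries and in neither LSC library. Ptprc, the pan-leukocyte gene Cd45, was listed in all 4. Of 3 erythroid markers 1, 0, 0 and 1 were listed, of 2 B cell markers 1, 1, 0 and 0, of 2 T cell markers 1 in each library, and of 2 megakaryocyte markers 0, 2, 1 and 1. Their part in the results below was not tested.

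Peaks of any strength were near universal at nucleoporin genes. They were present at 29 and 30 of the 30 genes in LSC replicates 1 and 2, and at 28 and 30 in HSC replicates 1 and 2. Over all protein-coding genes the shares were 79.4% and 82.4% in the LSC libraries, and 73.0% and 85.0% in the HSC libraries. The lists held no peak at Aaas in LSC replicate 1, or at Nup35 and Pom121 in HSC replicate 1. Listed peaks were present at 16 (53.3%) and 20 (66.7%) of the 30 genes in LSC replicates 1 and 2, against 32.3% and 41.2% of the 21887 protein-coding genes. For HSC replicates 1 and 2 they were present at 11 (36.7%) and 22 (73.3%), against 30.2% and 41.2%. The nucleoporin share thus stood above that of all genes in each library, by least in HSC replicate 1. No test was made of these shares. The nucleoporin genes were also longer, with a median of 44156 bp (11383 to 113537 bp) against 17169 bp over all genes. Per megabase of gene and flanks, listed peaks numbered 17.6 and 19.1 in LSC replicates 1 and 2 and 12.5 and 22.7 in HSC replicates 1 and 2, against 10.9, 13.2, 10.2 and 13.2 over all genes in the same order.

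**Figure D1:**
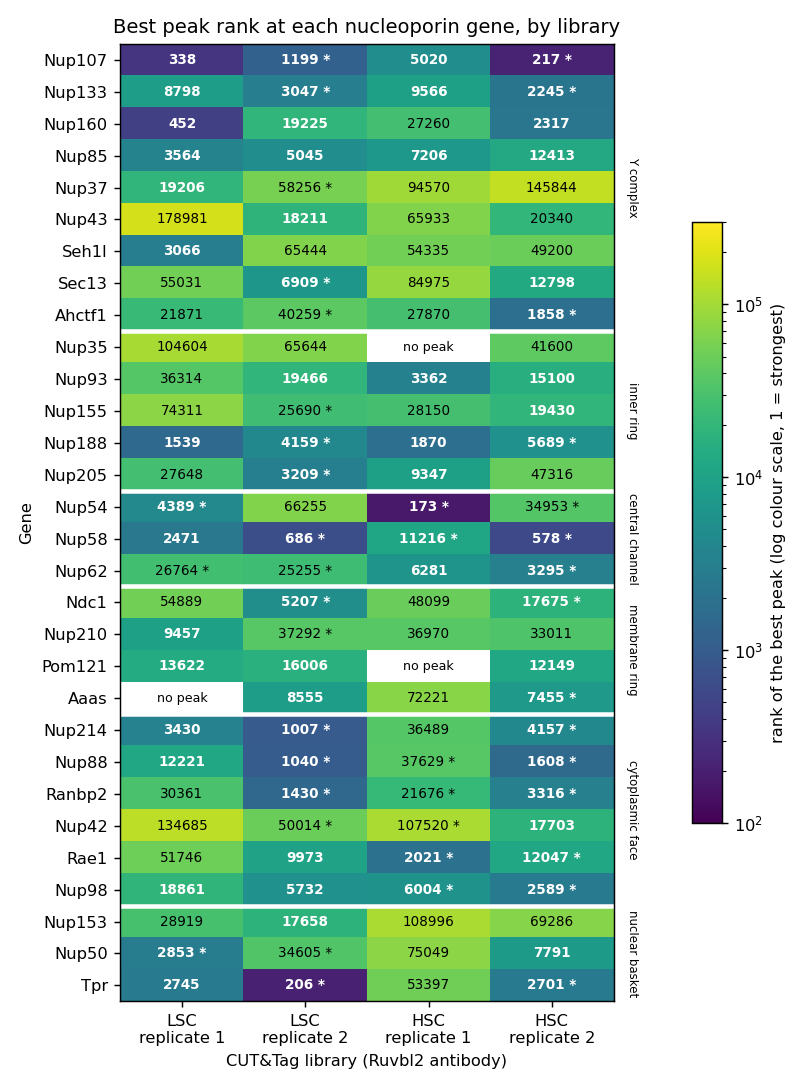
Rank of the best peak at each of the 30 nucleoporin genes (rows, by pore subcomplex) in each library (columns), on a log colour scale where 1 is the strongest peak of the library. White bold numbers mark listed peaks, an asterisk marks a best peak within 1 kb of an annotated start site, and cells without a peak read "no peak". Nup85, Nup43, Seh1l and Nup35 had no start site in the table used and so carry no asterisk. Nup107 has white numbers in every column and Nup35 in none.

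All 4 libraries listed 6 nucleoporin genes (20.0%), against 11.3% of all genes. These were Nup107, Nup133 and Nup85 of the Y complex, Nup188 of the inner ring, Nup58 of the central channel and Nup98. At least 3 libraries listed 13 (43.3%), against 25.6%. The LSC and HSC groups were close. LSC libraries listed on average 18 ± 2.83 nucleoporin genes and HSC libraries 16.5 ± 7.78 (SD, n = 2 each), a difference of 1.5 that is smaller than the spread between HSC libraries. A two-sided exact permutation test of the 4 libraries gave p = 1, where the smallest it can give is 0.333. Within replicate 1 the LSC library listed 5 more genes than the HSC library, and within replicate 2 it listed 2 fewer.

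No nucleoporin gene (0 of 30) was listed in both LSC libraries and in neither HSC library, against 2.35% of all genes. Nup62 alone (3.33%) was listed in both HSC and neither LSC library, against 2.09%. Shares by replicate number were 4 of 30 (13.3%) in replicate 2 of both groups alone, namely Sec13, Ndc1, Aaas and Ranbp2, against 7.30%, and 1 of 30 (3.33%) in replicate 1 of both groups alone, Nup54, against 1.93%. These cell-type counts rest on single libraries. Without HSC replicate 2, 5 genes (Nup160, Pom121, Nup214, Nup88 and Tpr) were listed in both LSC libraries and not in the remaining HSC library (16.7%, against 7.92% of all genes), and without HSC replicate 1 there were 0 (against 4.33%). Without LSC replicate 1 there were 2 (Nup43 and Nup153, 6.67% against 8.42%), and without LSC replicate 2 there were 3 (Nup37, Seh1l and Nup210, 10.0% against 7.06%). On the HSC side the count was 3 without LSC replicate 2 (Nup93, Nup62 and Rae1, 10.0% against 6.70%) and 4 without HSC replicate 1 (Ahctf1, Nup155, Nup62 and Nup42, 13.3% against 7.99%). Without HSC replicate 1, 11 genes (36.7%) were listed in every remaining library, against 16.9%. Some genes sat near the limit of the lists. Just inside were the best peaks of Nup43 in LSC replicate 2 (rank 18211), Nup98 and Nup37 in LSC replicate 1 (18861 and 19206), Nup160 and Nup93 in LSC replicate 2 (19225 and 19466) and Nup155 in HSC replicate 2 (19430). Just outside were Ahctf1 in LSC replicate 1 (21871), Ranbp2 in HSC replicate 1 (21676) and Nup43 in HSC replicate 2 (20340).

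**Figure D2:**
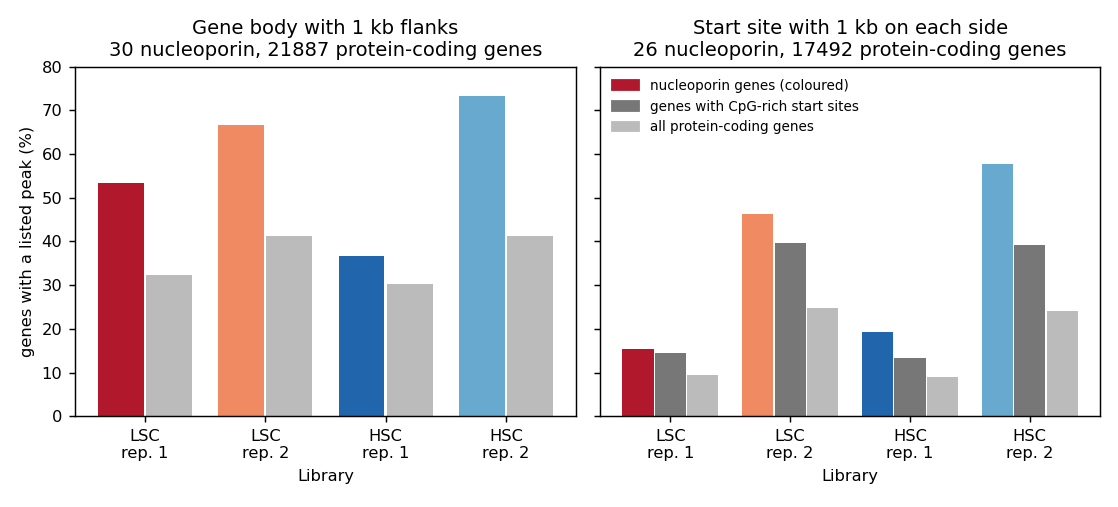
Percentage of genes with a listed peak in each library, LSC left of HSC, for nucleoporin genes (coloured bars), genes with CpG-rich start sites (dark grey, right panel) and all protein-coding genes (light grey). In the gene body the nucleoporin bars reach 53.3% and 66.7% in LSC and 36.7% and 73.3% in HSC; at start sites the replicate 2 bars are the taller ones in both groups.

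The strong peaks at start sites separated the replicate numbers more than the cell types, over all genes as well as at nucleoporin genes. Within 1 kb of a start site, 4 and 12 of 26 genes (15.4% and 46.2%) were listed in LSC replicates 1 and 2, against 9.54% and 24.8% of all genes. In HSC replicates 1 and 2 these were 5 and 15 (19.2% and 57.7%), against 9.03% and 24.1%. Among genes with a CpG-rich start site (ratio of at least 0.6) the difference from the background was smaller. In LSC replicates 1 and 2, 16.7% and 45.8% of 24 nucleoporin genes were listed, against 14.5% and 39.7% of 8466 genes. In HSC replicates 1 and 2, 20.8% and 58.3% were listed, against 13.3% and 39.1%. Start sites listed in replicate 2 of both groups and in neither replicate 1 were those of Nup133, Ndc1, Nup88, Ranbp2 and Tpr, 5 of 26 (19.2%) against 8.14%. Those of Nup107 and Nup214 were listed in all but HSC replicate 1, as were those of 2.65% of all genes, and those of Nup188, Nup58 and Nup98 in all but LSC replicate 1, as were 2.58%. Rae1 alone (3.85%) had its start site listed in both HSC and neither LSC library, against 0.789%. No start site (0 of 26) was listed in all 4 libraries or in both LSC libraries alone, where the shares of all genes, 2.84% and 0.835%, were also low. At 8 of 26 genes (30.8%), among them Nup160, Nup93 and Pom121, no library had a listed peak at the start site, against 63.4% of all genes.

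Where the best peak lay also differed by replicate number, again over all listed genes as well as nucleoporin genes. Among listed genes with a known start site, the best peak had its summit within 1 kb of it at 2 of 14 (14.3%) in LSC replicate 1 and 10 of 18 (55.6%) in LSC replicate 2, against 23.0% and 48.6% of all listed genes. The values were 4 of 10 (40.0%) in HSC replicate 1 and 14 of 21 (66.7%) in HSC replicate 2, against 23.6% and 47.7%. Median distances from summit to start site were 17712.5 and 447 bp in LSC replicates 1 and 2 and 11100.5 and 264 bp in HSC replicates 1 and 2. Over all listed genes they were 10812, 1142, 10429 and 1285 bp in the same order. In replicate 1 of both groups the typical best nucleoporin peak was thus kilobases from the start site, and in replicate 2 it was close to it. With 2 libraries for each replicate number no test of this could give a p below 0.333.

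**Figure D3:**
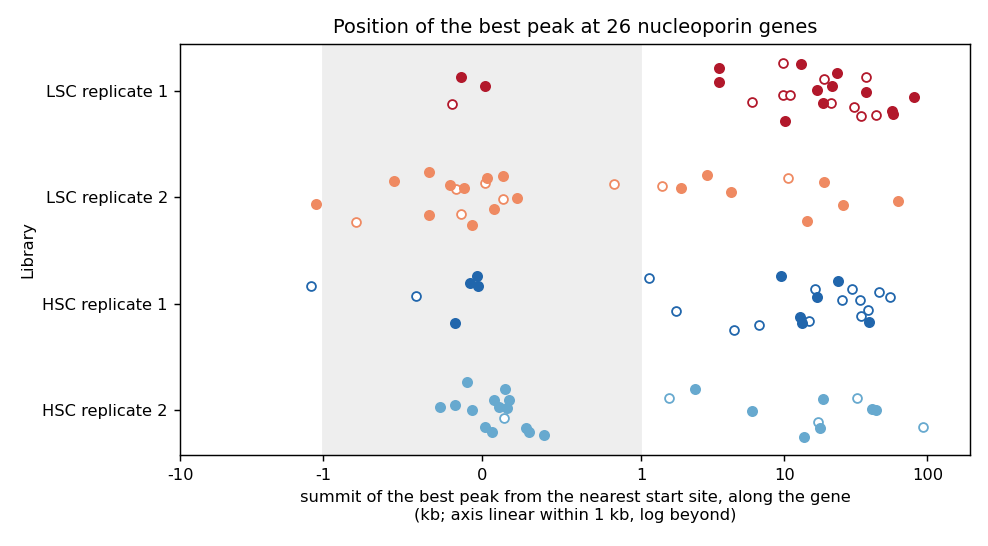
Distance of the best peak's summit from the nearest annotated start site, in kb along the gene (linear within 1 kb, log beyond), for 26 nucleoporin genes in each library, LSC above HSC. Filled points are listed peaks, open points are weaker, and the grey band spans 1 kb on each side; 2 filled points of LSC replicate 1 lie in it, against 14 of HSC replicate 2.

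Genes listed in the same libraries did not always share the same site. Merging overlapping listed peaks gave 75 regions at 29 genes, of which 58 (77.3%) were listed in 1 library, 11 (14.7%) in 2, 6 (8.0%) in 3 and 0 in 4. Over the regions of all protein-coding genes, merged in the same way, 84.4% were listed in 1 library, 10.1% in 2, 3.69% in 3 and 1.82% in 4. Of the 16 shared regions with a known start site 14 (87.5%) lay at it, and of the 53 single-library regions 4 (7.55%) did. Over all genes these shares were 60.8% and 14.2%, so that shared regions lay at start sites more often than single-library ones over all genes too. Between LSC replicate 2 and HSC replicate 2, 12 of 17 genes listed in both had overlapping listed peaks, against 65.0% of all genes listed in both. Between LSC replicate 1 and HSC replicate 1, 2 of 7 did (Nup107 and Nup54), against 26.6%. Both counts were thus near the share of all genes. Between LSC replicate 1 and HSC replicate 2 it was 3 of 12, against 37.7%. Between LSC replicate 2 and HSC replicate 1 it was 2 of 9, against 39.4%. Within the LSC group it was 2 of 11 (Nup107 and Nup214), against 36.2%, and within the HSC group 6 of 9 (Nup107, Nup188, Nup58, Nup62, Rae1 and Nup98), against 40.9%.

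Nup214, the gene with the floxed allele, had listed peaks in both LSC libraries and in HSC replicate 2. It spans positions 31974408 to 32053975 of chromosome 2 in mm10 on the plus strand, and its annotated start site is 31974450. The peak lists do not tell the floxed from the other allele. In LSC replicate 1 the start-site peak (31973672 to 31974483) had a fold of 39.0 and rank 10744, with its summit 80 bp before the start site. In LSC replicate 2 it (31974311 to 31975519) had a fold of 49.6 and rank 1007, with its summit 75 bp after the start site. In HSC replicate 2 it (31974057 to 31974731) had a fold of 19.3 and rank 4157, with its summit 103 bp after the start site. HSC replicate 1 had no peak within 1 kb of the start site. Its nearest peak (31976117 to 31976571) had its summit 1894 bp into the gene, a fold of 13.1 and rank 81140, and its best peak was 16495 bp into the gene at rank 36489 (fold 18.3). All 3 start-site peaks cover both CCAAT boxes of the window shown.

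The pileup of fragments at the summit, recovered from the authors' fold and −log10 p, gives the counting error of these peaks. At the Nup214 start site it was 212 (95% Poisson interval 184 to 243) in LSC replicate 1, 233 (204 to 265) in LSC replicate 2 and 102 (83.2 to 124) in HSC replicate 2. The weakest listed peak had a pileup of 154 and 85 in LSC replicates 1 and 2, and 82 and 67 in HSC replicates 1 and 2. These intervals cover counting error only, and pileups depend on depth. The start-site region thus stood clear of the limit in 3 libraries, and in HSC replicate 1 the list held no peak there.

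Beyond the start site the libraries did not share listed sites at Nup214. The strongest peak of LSC replicate 1 (fold 68.3, rank 3430, pileup 372) lay 573 bp beyond the 3′ end of the gene, at 32054548 to 32054819, and no other library had a peak there. LSC replicate 2 had a second listed peak inside the gene at 32032500 to 32033078 (fold 19.3, rank 16523). In total 10 and 10 peaks of any strength lay at the gene in LSC replicates 1 and 2, and 4 and 8 in HSC replicates 1 and 2. The annotated end of a neighbouring gene, Aif1l, at 31973442, lies 230, 869 and 615 bp from the start-site peaks of LSC replicates 1 and 2 and HSC replicate 2, so these peaks are not assigned to Nup214 alone.

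Nup88, whose product binds Nup214, had listed peaks in the same 3 libraries, but at its start site in replicate 2 only. The gene lies at 70943058 to 70969973 of chromosome 11 on the minus strand, with its start site at 70969973. LSC replicate 2 had a single peak at the gene, over the start site (70969408 to 70970930), with a fold of 48.9, rank 1040 and a pileup of 230 (201 to 262). HSC replicate 2 had a broad peak of 3054 bp there (70969284 to 70972337), with a fold of 27.0, rank 1608 and a pileup of 143 (121 to 168). In LSC replicate 1 the listed peak (70965792 to 70966778, fold 36.1, rank 12221) had its summit 3486 bp into the gene, and its start-site peak was weak, at rank 153007. In HSC replicate 1 the best peak (fold 18.0, rank 37629) had its summit 415 bp before the start site and was not listed. The gene Rpain begins at 70970130 and shares the start-site peaks of LSC replicate 2 and HSC replicate 2.

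**Figure D4:**
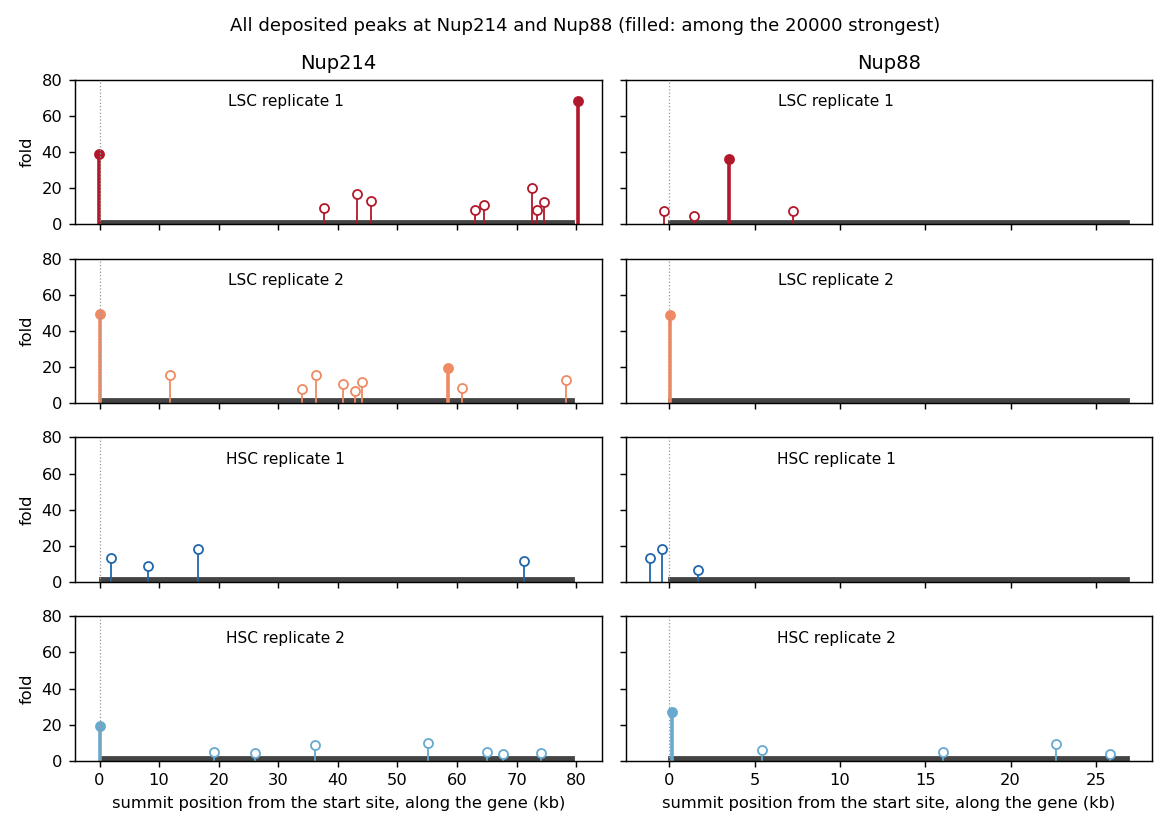
Every deposited peak at Nup214 (left) and Nup88 (right) by library, LSC above HSC. The height is the authors' fold, the horizontal axis is the summit's distance from the start site in kb along the gene, the dark bar is the gene and filled points are listed; filled points stand at the Nup214 start site in both LSC libraries and HSC replicate 2, and at the Nup88 start site in replicate 2 of both groups.

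The cytoplasmic face, with Nup98 and its partner Rae1, had 6 genes. Listed were 3 and 5 of them in LSC replicates 1 and 2, and 2 and 6 in HSC replicates 1 and 2. For this and each subcomplex below, the shares of all protein-coding genes were 32.3%, 41.2%, 30.2% and 41.2% in the same order. The subcomplexes have 3 to 9 genes each, and differences between them were not tested. Nup98, a mobile nucleoporin of both faces, was listed in all 4 libraries. Its best peaks had ranks 18861 and 5732 in LSC replicates 1 and 2 (folds 29.1 and 25.8) and 6004 and 2589 in HSC replicates 1 and 2 (39.1 and 22.8). The region at its start, shared with Pgap2, was listed in all but LSC replicate 1, where the best peak had its summit inside the gene, 18816 bp from the gene's 5′ end. Rae1, an mRNA export factor that binds Nup98, had ranks 51746 and 9973 in LSC (folds 18.3 and 22.0), and 2021 and 12047 in HSC (51.1 and 14.4). Its start site was listed in both HSC libraries, with summits 30 and 65 bp before it. The best peak of LSC replicate 2 was 14416 bp into the gene, and another listed peak of that library was 2864 bp into it (rank 17222). Weaker start-site peaks of Rae1 were present in LSC replicates 1 and 2 at ranks 123194 and 41022. Ranbp2, the large Ran-binding protein of the cytoplasmic filaments and a SUMO ligase, had ranks 30361 and 1430 in LSC (folds 23.4 and 43.4) and 21676 and 3316 in HSC (21.9 and 20.6). It was listed in replicate 2 of both groups, at its start site. Nup42, a filament protein of mRNA export, was listed in HSC replicate 2 alone at rank 17703.

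Among the 9 Y complex genes, whose products form the outer scaffold, 6 and 6 were listed in LSC replicates 1 and 2 and 3 and 6 in HSC replicates 1 and 2. Nup107 carried some of the strongest peaks of any nucleoporin gene. Its best peaks had ranks 338 and 1199 in LSC replicates 1 and 2 (folds 121 and 46.4), and 5020 and 217 in HSC replicates 1 and 2 (41.0 and 60.8). They came from different sites. A region 23260 bp inside the gene (chromosome 10, 117768572 to 117769910) was listed in LSC replicate 1, HSC replicate 1 and HSC replicate 2, at ranks 338, 5020 and 8411. The start-site region (117791761 to 117794156) was listed in LSC replicates 1 and 2 and HSC replicate 2, at ranks 10994, 1199 and 217, and had no peak in HSC replicate 1. Both regions were thus listed in both cell types.

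Nup133, at the end of the stem of the Y, had ranks 8798 and 3047 in LSC replicates 1 and 2 (folds 43.9 and 32.2), and 9566 and 2245 in HSC replicates 1 and 2 (33.1 and 24.1). The replicate 2 peaks overlapped at its start site, and those of replicate 1 lay 21562 bp inside the gene in LSC and 12797 bp inside it in HSC. Nup85, of an arm of the Y, had ranks 3564 and 5045 in LSC (folds 67.3 and 26.9) and 7206 and 12413 in HSC (36.6 and 14.2). Nup160, of the other arm, had ranks 452 and 19225 in LSC (folds 112 and 18.4) and 27260 and 2317 in HSC (20.2 and 23.8). The peak of LSC replicate 1 lay 36996 bp into Nup160, and those of replicate 2, which overlapped, lay 1898 bp after its start in LSC and 2392 bp after it in HSC. The remaining members were listed in 1 library or in replicate 2 of both groups. Sec13, which also serves in COPII vesicle coats, had ranks 55031 and 6909 in LSC (folds 17.8 and 24.4) and 84975 and 12798 in HSC (12.8 and 14.2). Its listed peaks did not overlap. Ahctf1 (ELYS), which brings the Y complex to chromatin after mitosis, had ranks 21871 and 40259 in LSC (folds 27.1 and 13.3) and 27870 and 1858 in HSC (20.0 and 25.6). The HSC replicate 2 peak was at its start site. Seh1l and Nup37 were listed in LSC replicate 1 alone, at ranks 3066 and 19206, and Nup43 in LSC replicate 2 alone.

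The inner ring is the scaffold around the channel. Of its 5 genes 1 and 3 were listed in LSC replicates 1 and 2, and 3 and 3 in HSC replicates 1 and 2. Nup188, a large scaffold protein, had ranks 1539 and 4159 in LSC (folds 85.6 and 28.8) and 1870 and 5689 in HSC (51.9 and 17.6). Its start-site region, shared with the adjoining gene Dolk, was listed in all but LSC replicate 1, and the best peaks of replicate 1 lay 56443 bp inside the gene in LSC and 39292 bp inside it in HSC. Nup93, which links the ring to the central channel, had ranks 36314 and 19466 in LSC (folds 21.8 and 18.4), and 3362 and 15100 in HSC (45.9 and 13.7). The LSC replicate 2 peak lay beyond the 3′ end of Nup93 and overlapped Slc12a3, and the others lay inside Nup93. Nup205, a paralogue of Nup188, was listed in LSC replicate 2 at its start site (rank 3209) and in HSC replicate 1 inside the gene (rank 9347). Nup155 was listed in HSC replicate 2 alone. Nup35, a membrane-binding member, had no listed peak, with ranks of 104604 and 65644 in LSC replicates 1 and 2 and 41600 in HSC replicate 2, and no peak in HSC replicate 1.

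The 3 central channel genes encode the Nup62 complex, which is rich in phenylalanine-glycine repeats. Listed were 2 and 1 in LSC replicates 1 and 2, and 3 and 2 in HSC replicates 1 and 2. Nup58 had ranks 2471 and 686 in LSC (folds 75.8 and 57.2) and 11216 and 578 in HSC (30.6 and 40.2). Its start site was listed in all but LSC replicate 1, which had a weaker peak there at rank 41639. Nup54 had ranks 4389 and 66255 in LSC (folds 62.4 and 11.0), and 173 and 34953 in HSC (96.8 and 11.0). Its start-site region (chromosome 5, 92434708 to 92435465) was listed in replicate 1 of both groups and had a weaker peak in HSC replicate 2 and none in LSC replicate 2. Nup54 was thus the reverse of the usual case, in which replicate 2 marked the start site.

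Nup62, the gene listed in both HSC libraries and in neither LSC library, had best peaks at ranks 26764 and 25255 in LSC replicates 1 and 2 (folds 24.9 and 16.7). In HSC replicates 1 and 2 the ranks were 6281 and 3295 (folds 38.5 and 20.8). LSC peaks were present, then, but beyond the limit of 20000. The HSC peaks overlapped in a region at the start of the gene (chromosome 7, 44815405 to 44817425) that also holds an end of Atf5 and of Il4i1b. There HSC replicate 1 had rank 7308, with its summit 1147 bp after the start site, and both LSC libraries had weaker peaks. Within 1 kb of the start site itself, the best peaks had ranks 26764 and 25255 in LSC replicates 1 and 2, and 70619 and 3295 in HSC replicates 1 and 2. Peaks at this region were thus not absent from LSC. With the 40000 strongest peaks of each library, 0 nucleoporin genes were listed in both HSC and in neither LSC library.

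Of the 4 membrane ring genes, 2 and 3 were listed in LSC replicates 1 and 2, and 0 and 3 in HSC replicates 1 and 2. The 0 of 4 in HSC replicate 1 stands against 30.2% of all genes. Pom121, a transmembrane nucleoporin, had ranks 13622 and 16006 in LSC (folds 34.0 and 19.5) and no peak and 12149 in HSC (fold 14.4). None of its listed peaks overlapped between libraries. Ndc1, a transmembrane anchor, had ranks 54889 and 5207 in LSC (folds 17.8 and 26.7), and 48099 and 17675 in HSC (16.7 and 13.1), with overlapping replicate 2 peaks at the start site. Aaas (aladin), which Ndc1 holds at the pore, had no peak and rank 8555 in LSC (fold 22.9), and ranks 72221 and 7455 in HSC (13.9 and 16.3). Nup210 (gp210), a membrane protein known in muscle and immune cells, was listed in LSC replicate 1 alone, at rank 9457.

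Of the 3 nuclear basket genes, 2 and 2 were listed in LSC replicates 1 and 2 and 0 and 2 in HSC replicates 1 and 2. The 0 of 3 in HSC replicate 1 stands against 30.2% of all genes. Tpr, the coiled-coil protein of the basket filaments, had the strongest nucleoporin peak of LSC replicate 2. Its ranks were 2745 and 206 in LSC replicates 1 and 2 (folds 73.6 and 87.9), and 53397 and 2701 in HSC replicates 1 and 2 (15.9 and 22.3). In replicate 2 of both groups the peak was at the start site, which Odr4 shares, with pileups of 414 (375 to 456) in LSC and 118 in HSC, while the LSC replicate 1 peak was 3500 bp into the gene. Nup50, a basket protein of import, was listed at its start site in LSC replicate 1 (rank 2853, fold 72.7) and HSC replicate 2 (rank 9773), and its best HSC replicate 2 peak, at rank 7791, was 18650 bp downstream. Nup153, which anchors the basket, was listed in LSC replicate 2 alone at rank 17658.

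Genes of nuclear transport and the nuclear envelope outside the pore were also listed in both groups. Of 49 such genes, 23 and 34 were listed in LSC replicates 1 and 2, and 21 and 33 in HSC replicates 1 and 2. The shares of all protein-coding genes were 32.3%, 41.2%, 30.2% and 41.2% in the same order. All 4 libraries listed 13 (26.5%), against the 11.3% of all genes given above. These were Rangap1, which activates the GTPase of Ran, the Ran import factor Nutf2, the importins Ipo7, Ipo8, Ipo11 and Ipo13, the exportins Xpo1, Xpo6 and Xpo7, the mRNA export factor Pcid2, and Sun2, Lmnb2 and Emd of the envelope. Xpo1, the exportin to which Nup214 binds, had ranks 2672 and 5145 in LSC replicates 1 and 2, and 4902 and 951 in HSC replicates 1 and 2. Emd was listed within 1 kb of its start site in every library, at ranks 7352 and 5882 in LSC and 8002 and 10580 in HSC. Kpna4, an importin alpha, was the 1 of 49 listed in both LSC and neither HSC library, against 2.35% of all genes, at ranks 8609 and 2111 in LSC. Its HSC peaks had ranks 25323 and 22264, beyond the limit. No gene (0 of 49) was listed in both HSC and neither LSC library, against 2.09%. Of the 2 genes of human fusion partners of NUP214, 0 and 1 were listed in LSC replicates 1 and 2. In HSC replicates 1 and 2 it was 2 and 1, against the same shares of all genes. Set had ranks 120887 and 17834 in LSC and 10256 and 3265 in HSC, and Dek had ranks 24450 and 34466 in LSC and 14807 and 48647 in HSC.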

How the data were processed

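The authors made CUT&Tag libraries with a Ruvbl2 antibody and deposited 1 narrowPeak list per library. Per the labels' protocols the secondary antibody was anti-rabbit, while the species of the Ruvbl2 antibody is not stated. Per the submitters' processing notes, FastQC 0.11.5, Bowtie2 2.2.9, MACS2 and ChIPseeker were used with mm10. Read filters, duplicate handling and the caller's threshold are not stated in those sources. The authors' fold is a ratio of summit pileup to the library's background, their −log10 p and −log10 q test it, and the deposited score ranks peaks as well. The smallest deposited −log10 q was 5.07, 5.07, 5.31 and 5.58 in LSC replicates 1 and 2 and HSC replicates 1 and 2. Ordering peaks by fold or by −log10 p gave the same order.

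Peaks outside the autosomes, X and Y were dropped, and the 20000 with the largest −log10 p were taken per library, so that list lengths were equal. Genes came from a RefSeq table of GRCm38.p6, start sites from RefSeq promoter windows, and overlap meant at least 1 bp. Summit pileups were recovered from fold and −log10 p as whole numbers (within 0.05) for 100% of peaks tested over background pileups of 4.46, 3.72, 2.66 and 4.34. The strongest peaks of each library were left out of this check. Among them were the Nup214 peaks of both LSC libraries given with a pileup, and the Nup88 and Tpr start-site peaks of LSC replicate 2. Computation used Python 3.11.15 with pandas 2.3.3, numpy 2.4.6 and scipy 1.17.1, and the procedure was tested on simulated lists. The group difference had a two-sided exact permutation test. Members shown with each library's best peak were those listed in at least 3 libraries, in both libraries of a cell type or of a replicate number alone, or with a best rank of at most 2000 in some library; others are given by counts and single ranks. Nup205, Nup50 and Nup35 were described beyond that rule after their values were seen. The members and lists were chosen with earlier results of these data known. Alternatives were shorter, longer and full lists, ranking by fold, other overlap and flank rules, leaving out each library, a replicate block, and start sites alone, the last chosen after the data were seen.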

Additional observations from a re-analysis of the deposited data

How the results depend on the processing

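Counts of nucleoporin genes depended on the length of the lists and on single libraries. Genes listed in all 4 libraries numbered 6, and 3 with the 10000 strongest peaks, 13 with the 40000 strongest, 27 with the full lists, 0 with gene ends only and 0 with start sites only, an alternative chosen after the data were seen. Genes listed in every remaining library numbered 6 to 11 when a library was left out, against 13.3% to 16.9% of all genes. Shares of all genes were not computed for the other list lengths, overlap and flank rules or gene ends. With the full lists, 73.0% to 85.0% of all genes had a peak in each library. The counts at those settings are thus not read as traits of nucleoporin genes. Genes listed in both LSC and neither HSC library numbered 0, and 1 with the 40000 strongest peaks and 0 to 5 when a library was left out. Genes listed in both HSC and neither LSC library numbered 1. They numbered 2 when most of the peak (a share of at least 0.5) or its summit had to lie in the window, 2 without flanks (Nup93 and Nup62), 0 with the 40000 strongest peaks, 0 with the full lists, 0 with gene ends only and 1 to 4 when a library was left out. The difference in listed genes, LSC minus HSC, was 1.5, and -0.5 with gene ends only, -2 with start sites only (exact p = 0.667) and -4 to 7 when a library was left out. Its sign thus turned with single libraries (-0.5 without LSC replicate 2, -4 without HSC replicate 1). With the 10000 strongest peaks, gene ends only or start sites only, Nup214 kept 3 listed libraries and Nup88 2. Several of the 14 settings could not bring either gene below 2. These were longer lists, wider flanks, ranking by fold and leaving out 1 library. The cause of these changes was not tested.

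The labels do not say that a replicate number marks a shared batch or animal, though the peak names of replicate 1 share a stem in both groups and those of replicate 2 another. Deviations of log ranks from the group means correlated at 0.235 across 27 genes within the numbers. With 2 libraries per group this is a single correlation, the same for both numbers by construction. With the replicate block the difference was 1.5 (exact sign-flip p = 1), as without it. With 2 libraries per group no test could pass 0.05, and without read totals a gene outside the list is not shown to lack signal.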
